A study of Mus musculus with 6 samples.

Results

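The genes described here were the cytosolic ribosomal protein genes, taken from the expression table as the symbols that begin with Rpl, Rps or Rplp followed by a number, with at most a closing a, x or l, and that reached 1 FPKM (fragments per kilobase of transcript per 1000000 mapped fragments) in at least 2 of the 6 libraries. Of 80 symbols of this form, 76 reached that level and are called members, 46 of the large and 30 of the small ribosomal subunit, among 23951 genes in the table and 11379 genes tested. RNA was compared between 3 untreated mouse melanoma lines, each with 2 libraries and each grown in DMEM with fetal bovine serum. B16-F1 is a line of low metastatic potential and came from a cell bank. B16-F1R2 was derived from a lymph node metastasis, and B16-F1R2L from a lung metastasis that itself derived from a lymph node metastasis. Both metastatic lines were obtained from a different laboratory, and for any difference from B16-F1 the line and its source cannot be told apart. Whether separate cultures stood behind a line's 2 libraries is not stated, and the p-values measure only the spread between libraries, which may be technical.

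A ribosome is built from ribosomal RNA and a fixed set of proteins, each of which is present in a single copy except for the acidic proteins of the P stalk. The small subunit reads the mRNA and the large subunit forms the peptide bond. The mRNAs of these proteins are among the most abundant in growing cells, and many begin with a C and a run of pyrimidines, the oligopyrimidine tract, through which their translation is controlled by nutrient and growth factor signalling. Apart from their work in the ribosome, Rpl5 and Rpl11 bind the ubiquitin ligase Mdm2 and thereby stabilise p53, and Rps6 is the substrate by which S6 kinase activity is usually followed.

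To show a feature outside the rule that part of these genes carry, the annotated transcript starts are given for members that the results below turn on. Each sequence runs 15 bases before to 15 bases after the start of the RefSeq promoter entry on GRCm38.p6, 5′ to 3′ on the strand of the gene, and capitals mark a C followed by at least 4 bases that are each C or T and beginning within 2 bases of the start.
Rps10, chr17:27635230-27635259, minus strand: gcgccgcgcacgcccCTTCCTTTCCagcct
Rps18, chr17:33955651-33955680, minus strand: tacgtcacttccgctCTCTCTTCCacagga
Rps2, chr17:24720048-24720077, plus strand: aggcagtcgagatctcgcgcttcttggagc
Rpl28, chr7:4792950-4792979, plus strand: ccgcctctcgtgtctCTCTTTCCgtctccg
Rps24, chr14:24490663-24490692, plus strand: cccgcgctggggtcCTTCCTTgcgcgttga
Rpl31, chr1:39367836-39367865, plus strand: cttcctcctcgcctccccgtgacccggaag
Rps6, chr4:86857353-86857382, minus strand: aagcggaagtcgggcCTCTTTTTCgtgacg
A promoter entry was found for 56 of the 76 members. The tract lay within 2 bases of the start in 21 of these 56 members (37.5%), against 10.6% of 27025 genes with an entry, and exactly at the start in 13 members (23.2%), against 3.01% of the genes. Only the strand of the gene was searched, and a start annotated a few bases away from the one used by the cells would hide a tract. Rps10, Rps18 and Rpl28, which were lower in the metastatic lines, held a tract, as did Rps24 and Rps6, which were higher, whereas Rps2, lower, and Rpl31, higher, did not.

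The authors aligned the reads of 50 bases to mm9 and deposited FPKM values, which summed to between 596657 and 672794 per library. The table holds no counts. From the lowest FPKM of genes with a single annotated transcript, the depth was estimated at 12900000 to 14800000 reads, and no interval that needs counts is given. The 7 melanocyte markers summed to 14970 and 15007 FPKM in the libraries of B16-F1, to 7909 and 8125 in those of B16-F1R2, and to 8924 and 8933 in those of B16-F1R2L, while 11 markers of immune, endothelial, epithelial and stromal cells summed to 1.07 to 4.04 FPKM, with Ptprc, Emr1, Cdh5, Krt5, Dcn and Lum listed at 0 in all lines. The labelled cell type therefore held its defining markers. FPKM express a share of the sequenced RNA, so that fewer cells of a kind and less RNA per cell cannot be told apart, and a change in the RNA content of the whole cell was not measured.

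The members were abundant in all lines. Their FPKM summed to 123805 and 124084 in the 2 libraries of B16-F1, to 138899 and 124897 in B16-F1R2, and to 114060 and 107021 in B16-F1R2L. As a share of all FPKM this was 19.1% and 18.9% in the libraries of B16-F1, 20.6% and 19.6% in those of B16-F1R2, and 18.4% and 17.9% in those of B16-F1R2L, with means of 19.0% ± 0.0824, 20.1% ± 0.749 and 18.2% ± 0.354 (SD, n = 2 each). B16-F1R2 had the highest and B16-F1R2L the lowest share, and no library of a line overlapped with those of another. These shares are sums over the members and are given as a description, with no test. Between 26 and 32 of the 50 genes with the highest FPKM in a library were members, 31 and 32 in B16-F1 against 26 in each library of B16-F1R2L.

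**Figure D1:**
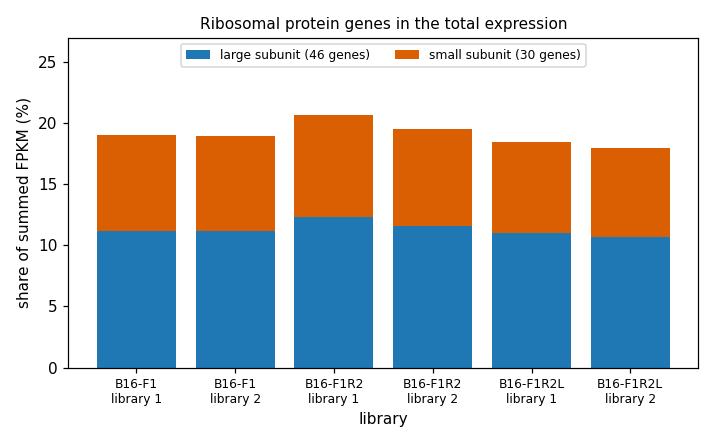
Share of summed FPKM (%, vertical axis from 0) held by the 46 large subunit and 30 small subunit genes, stacked, in each of the 6 libraries (horizontal axis). The total is 19.1% and 18.9% in B16-F1, whereas B16-F1R2 had 20.6% and 19.6% and B16-F1R2L had 18.4% and 17.9%, and the large subunit holds the larger part in every bar.

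The mRNA levels per length differed widely among the members. The mean over the 6 libraries ran from 71.8 FPKM for Rpl30 to 4749 FPKM for Rplp1, a 66.1-fold range, with a median of 1538 FPKM and 56 of the 76 members within 2-fold of the median. Rplp1, an acidic protein of the stalk that recruits elongation factors, Rpl41, the smallest protein of the ribosome (4039 FPKM), and Rpl32 (3893 FPKM) were highest. Rpl30, Rps15a (72.6 FPKM) and Rpl34 (79.2 FPKM) were lowest. These lowest members lay far above the 1 FPKM of the rule, and the 4 symbols that failed it lay far below. Rpl10l, Rpl3l and Rps4l, paralogues of Rpl10, Rpl3 and Rps4x, were listed at 0 in every library, and Rpl39l did not exceed 0.128 FPKM. Rps27l, a paralogue of Rps27 that p53 induces, was the exception among the paralogues that match the symbol rule, with 882 and 867 FPKM in B16-F1. The order of levels was nearly the same in the 3 lines, as the Spearman correlation of line means across the 76 members was 0.96 between B16-F1 and B16-F1R2, 0.953 between B16-F1 and B16-F1R2L and 0.993 between the metastatic lines, which describes genes measured in shared libraries and not independent replicates.

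How reads were assigned to genes can bear on a level, and its part in this range was not tested. Ribosomal protein genes have many processed pseudogenes, and a median of 49% of the 50-base stretches of a member's transcripts occurred elsewhere in the NCBIM37 assembly, with a highest value of 99.7% in Rps27 and 37 of 75 members at 50% or more. Rpl34 and its pseudogene are shown because the table lists both. The transcripts of Rpl34 share 280 of 655 stretches (42.7%) with a single place on chromosome 6, the pseudogene that the table lists as Rpl34-ps1 (chr6:71074583-71074994, NCBIM37), and the first 50 coding bases, at chr6:71074604-71074653, are identical in both.
Rpl34, first 50 coding bases: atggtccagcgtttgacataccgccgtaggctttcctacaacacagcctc
Rpl34 was given 104 and 80.9 FPKM in the libraries of B16-F1, 62.5 and 94.6 in those of B16-F1R2, and 73.8 and 59.4 in those of B16-F1R2L. Rpl34-ps1, chosen after its values were seen, was given 1007 and 1035, 1260 and 1166, and 1040 and 1031 FPKM in the same order. The libraries of B16-F1R2 overlapped with those of both other lines for Rpl34, and those of B16-F1R2L lay below those of B16-F1 without passing the test (limma adjusted p = 0.11). Taken as a sum, the pair had 1111 and 1116 FPKM in B16-F1, whereas B16-F1R2 had 1323 and 1261 and B16-F1R2L had 1113 and 1090, beside the 1538 FPKM of the median member. Rps3a1, which carries the protein known as Rps3a but does not match the rule and was also chosen after its values were seen, stood at 1447 and 1420, 1643 and 1500, and 1423 and 1391 FPKM.

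To compare the subunits, the sums of the 46 large and 30 small subunit genes were set against each other within each library, which no scaling between libraries can change. The ratio of large to small was 1.439 and 1.445 in the libraries of B16-F1, 1.460 and 1.464 in those of B16-F1R2, and 1.483 and 1.477 in those of B16-F1R2L. The 3 lines did not overlap, but the whole range was narrow. The median member stood at 1438 FPKM in the large and 1688 FPKM in the small subunit, so the larger sum of the large subunit came with its larger number of genes.

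In the comparison of B16-F1R2 with B16-F1, 23 of the 76 members were higher and 6 were lower (limma, Benjamini-Hochberg adjusted p under 0.05), where 28.2% of all tested genes were higher and 27.2% lower. The share of members called higher, 30.3%, was near that of all genes, and the share called lower, 7.89%, was under it. The first of these depended on the scaling. With the libraries rescaled to the same sum, 39 of the 76 members and 3002 of the 11379 tested genes were higher. With a sum over the genes that are not members, these counts were 42 and 3220. The median member log2 fold change was 0.12, against 0.00 for all tested genes. Both libraries of B16-F1R2 were above both of B16-F1 in 46 members and below them in 9, while 40.3% and 39.7% of all tested genes were above and below. Changes were small, with 58 members under 0.3 and 3 members at 0.5 or more in absolute log2 fold change.

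The 5 members with the largest rises were Rpl7, Rpl17, Rps24, Rpl31 and Rpl37. Rpl7, a large subunit protein that lies on chromosome 1 (chr1:16091376-16094743, mm9), had 1265 and 1262 FPKM in B16-F1, whereas B16-F1R2 had 2006 and 1891 and B16-F1R2L had 1726 and 1709. It was lowest in B16-F1 and highest in B16-F1R2, without overlap, and its log2 fold change was 0.62 (SE 0.06, limma adjusted p = 1.9e-04). Rps24, mutated in a form of Diamond-Blackfan anaemia, had 1227 and 1162 FPKM in the libraries of B16-F1, 1778 and 1688 in those of B16-F1R2, and 1520 and 1514 in those of B16-F1R2L. Again the parental line was lowest, with a log2 fold change of 0.54 in B16-F1R2 (SE 0.06, limma adjusted p = 4.2e-04). Rpl17 rose by 0.55 from 643 and 612 FPKM to 965 and 877. Rpl31, which sits at the exit of the peptide tunnel, rose by 0.49, and Rpl37 by 0.43. Set against B16-F1, B16-F1R2L also showed higher levels of these 5 members, by 0.44 for Rpl7, 0.41 for Rpl31, 0.40 for Rpl17, 0.35 for Rps24 and 0.30 for Rpl37, in a comparison that shares the B16-F1 libraries.

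The members that fell included Rps10, Rpl36, Rps2, Rps18 and Rpl28. Rps10, a small subunit protein near the mRNA entry, had 2157 and 2129 FPKM in B16-F1, whereas B16-F1R2 had 1733 and 1504 and B16-F1R2L had 1435 and 1303. Each line lay below the one before it without overlap, and the log2 fold change in B16-F1R2 was -0.41 (SE 0.09, limma adjusted p = 0.0072). Rps2 had 3200 and 3306 FPKM in the libraries of B16-F1, 2682 and 2477 in those of B16-F1R2, and 2161 and 2023 in those of B16-F1R2L, a log2 fold change of -0.34 in B16-F1R2 (SE 0.07, limma adjusted p = 0.0073). Rpl36 changed by -0.36, Rps18 by -0.30 and Rpl28 by -0.24. A ratio of 2 genes within a library does not depend on scaling, and that of Rpl7 to Rps10 was 0.587 and 0.593 in B16-F1, whereas B16-F1R2 had 1.16 and 1.26 and B16-F1R2L had 1.20 and 1.31. The pair was chosen after its values were seen.

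The size of the difference in B16-F1R2 depended on the libraries used. Library 1 of B16-F1R2 was above library 2 in 74 of the 76 members, with a median difference of 0.14 on the log2 scale, where the tested genes had -0.01. The libraries of B16-F1 showed no such order (37 of 76), and in B16-F1R2L library 1 was above in 61. Without library 1 of B16-F1R2 the counts were 18 higher and 7 lower with a median of 0.06, and without library 2 they were 39 higher and 2 lower with a median of 0.21. Leaving out library 1 or library 2 of B16-F1, which leaves a single B16-F1 library assumed to vary like the others, gave 14 higher in each case and 0 or 1 lower in limma (3 or 2 lower at an unadjusted p under 0.05). With GC content and transcript length corrected for, the counts were 23 higher and 18 lower, and the median was 0.01.

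**Figure D2:**
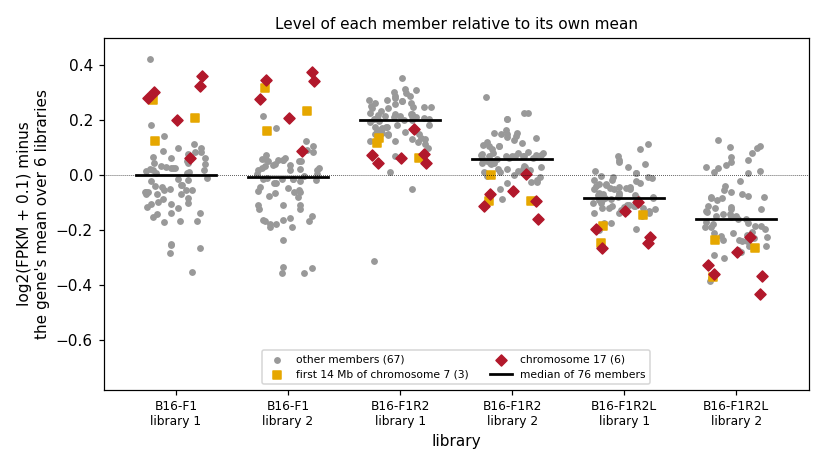
Each point is a member in a library (horizontal axis), plotted as log2(FPKM + 0.1) minus its own mean over the 6 libraries (vertical axis); red diamonds are the 6 members on chromosome 17, yellow squares the 3 in the first 14 Mb of chromosome 7, and black lines the median of all 76. From left to right the medians are 0.00, -0.01, 0.20, 0.06, -0.08 and -0.16, and the red diamonds lie above the median line in B16-F1 and below it in the other lines.

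In B16-F1R2L against B16-F1, 10 members were higher and 22 lower (limma, adjusted p under 0.05), with 29.5% of all tested genes higher and 27.1% lower. The median member log2 fold change was -0.11, against 0.02 for all tested genes. Both libraries were above those of B16-F1 in 16 members and below in 48, where 41.7% and 39.1% of all tested genes were above and below. The 10 higher members were fewer, as a share (13.2%), than among all genes, and the 22 lower members (28.9%) were near the share of all genes. This split depended on the scaling. Rescaling the libraries to the same FPKM sum gave 20 higher and 17 lower members and a median of -0.01. Quantile normalization gave 19 and 16, and a sum over the genes that are not members gave 18 and 18. The background shifted as well, from 3361 higher and 3086 lower among 11379 genes to 4078 and 2051 with the same sum. It was 2857 and 3591 under quantile normalization, and 4017 and 2221 with the sum that leaves out the members. With either sum, members were called higher less often, and lower more often, than the background. Rescaling to the same sum moved the median of all tested genes to 0.12 in this comparison and to 0.13 between the metastatic lines, so the median member stayed below the median gene. Under quantile normalization the median member was at 0.00 and the median of all tested genes at -0.05, which turns that order. The split also depended on other processing. With GC content and transcript length corrected for, 12 of 75 members were higher and 37 lower, beside 3014 and 3299 of 10203 genes.

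Large falls in B16-F1R2L were those of Rpl36 (-0.69), Rps10 (-0.65), Rps2 (-0.64) and Rps18 (-0.54). Rpl36 had 3169 and 3282 FPKM in the libraries of B16-F1, 2668 and 2369 in those of B16-F1R2, and 2135 and 1874 in those of B16-F1R2L. The lines were again in one order without overlap, and its change in B16-F1R2L had an SE of 0.09 and a limma adjusted p of 0.0010. Leaving out library 1 of B16-F1 gave 6 higher and 9 lower members, leaving out library 2 of B16-F1 gave 5 and 7, and leaving out library 2 of B16-F1R2L gave 6 and 12.

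Between the metastatic lines, 0 members were higher and 30 lower in B16-F1R2L (limma, adjusted p under 0.05; at an unadjusted p under 0.05, 0 higher and 62 lower), where 12.1% of all tested genes were higher and 10.5% lower. The median member log2 fold change was -0.24, against 0.02 for all tested genes, and 75 of 76 members had a negative value. Both libraries of B16-F1R2L were below both of B16-F1R2 in 71 members and above them in 0, whereas 29.2% of all tested genes were below and 35.9% above. The differences were of similar size from gene to gene, between -0.43 and 0.03, and 55 of the 76 were under 0.3 in absolute value.

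Rps19, the protein most often mutated in Diamond-Blackfan anaemia, had the largest difference between these lines, with 1662 and 1488 FPKM in the lymph node line against 1241 and 1102 in the lung line, and a log2 fold change of -0.43 (SE 0.08, limma adjusted p = 0.018). In B16-F1 it had 1274 and 1322 FPKM, near the values of B16-F1R2L. Rplp1 had -0.38, from 5308 and 4692 to 4086 and 3620 FPKM, and Rps26 and Rps27a had -0.34 each. Rps26, which contacts the mRNA upstream of the start codon, stood at 1971 and 1935 FPKM in the libraries of B16-F1, 2646 and 2498 in those of B16-F1R2, and 2102 and 1950 in those of B16-F1R2L, so that B16-F1R2 alone was set apart. Rpl15 was the exception in sign, at 433 and 405 FPKM in the lymph node line against 415 and 441 in the lung line, which overlapped.

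The number of calls between the metastatic lines rested on the libraries used. With only the 4 libraries of these lines in the model it was 2 lower members, without library 1 of B16-F1R2 it was 0 (42 at an unadjusted p under 0.05), without library 2 of B16-F1R2L also 0 (27 unadjusted), and without library 1 of B16-F1R2L it was 9. Leaving out either B16-F1 library, which enters only through the shared estimate of the spread, gave 2. Without library 2 of B16-F1R2 there were 48. Quantile normalization gave 1 higher and 10 lower, eBayes without a trend 10 lower, and a test without the filter on low values 5 lower. The GC and length correction gave 52 of 75 lower. Of the 11379 tested genes, 644 were lower with the 4 libraries alone, 1132 under quantile normalization and 650 in eBayes without a trend. Without the filter 743 of 16483 genes were lower, and with the GC and length correction 1642 of 10203. The median stayed negative throughout, from -0.32 to -0.08.

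**Figure D3:**
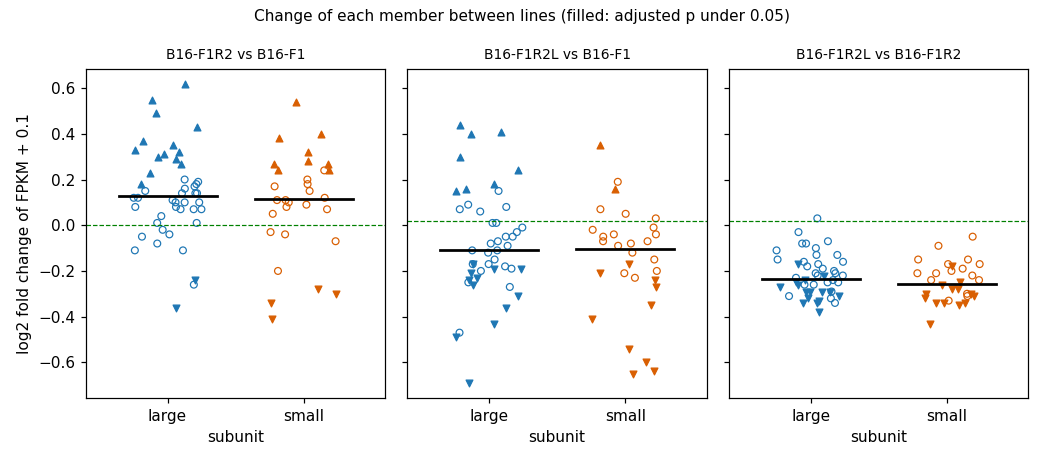
log2 fold change of FPKM + 0.1 (vertical axis) for the 46 large and 30 small subunit members (horizontal axis) in the 3 comparisons, with filled upward and downward triangles for members higher or lower at an adjusted p under 0.05, open circles for the rest, black lines for the median of each subunit and a dashed green line for the median of all tested genes. The subunit medians are 0.13 and 0.11, then -0.11 in both, then -0.23 and -0.25.

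The subunits were then compared gene by gene. In B16-F1R2 against B16-F1, 14 of 46 large subunit genes were higher and 2 lower with a median of 0.13, and 9 of 30 small subunit genes were higher and 4 lower with a median of 0.11. In B16-F1R2L against B16-F1 the counts were 8 higher and 12 lower for the large and 2 higher and 10 lower for the small subunit, each with a median of -0.11. Between the metastatic lines 16 large and 14 small subunit genes were lower, with medians of -0.23 and -0.25. The shares called in B16-F1R2 were 30.4% higher and 4.35% lower for the large and 30% and 13.3% for the small subunit, beside 28.2% and 27.2% of all tested genes. For B16-F1R2L against B16-F1 they were 17.4% and 26.1%, and 6.67% and 33.3%, beside 29.5% and 27.1%, and between the metastatic lines 34.8% and 46.7% were lower, beside 10.5%. The difference of the medians, large minus small, was 0.01, 0.00 and 0.02 in these comparisons. It was 0.07, 0.05 and 0.00 with GC content and transcript length corrected for, and 0.05, 0.12 and 0.07 over the members with under 50% shared stretches, and no test of it was made because the members are not replicates of a line.

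The 6 members that fell in B16-F1R2 were grouped by chromosome after their values were seen. Rps10 (chr17:27767367-27773574, mm9), Rpl36 (chr17:56752818-56753666), Rps2 (chr17:24855061-24858874) and Rps18 (chr17:34088944-34092946) lie on chromosome 17, and Rpl28 (chr7:4744476-4746164) lies in the first 14 Mb of chromosome 7, as do all of the 6 that are not on chromosome 17. Chromosome 17 holds 6 members, and Rps28 and Rpl10a, the other two, had log2 fold changes of -0.20 (limma adjusted p = 0.056) and 0.01. The placement depended on the processing. With GC content and length corrected, 5 of the 6 members on chromosome 17 and 13 of the 69 on other chromosomes were lower, and after quantile normalization 5 and 5 were. Without library 1 of B16-F1, 0 members passed as lower on chromosome 17 (3 at an unadjusted p under 0.05) and 0 elsewhere (0 unadjusted), without library 2 of B16-F1 1 and 0 did (2 and 0 unadjusted), and without library 2 of B16-F1R2 2 and 0 did (4 and 1 unadjusted). In B16-F1R2L against B16-F1 all 6 on chromosome 17 were lower, with a median of -0.59, while the 69 members placed on other chromosomes had a median of -0.09, which was 0.01 with the libraries rescaled to the same sum and 0.02 after quantile normalization (-0.49 and -0.42 for the 6). Each member was also expressed as its deviation from its own mean over the 6 libraries, and the median deviation of the 6 minus that of the other members of the same library, which is independent of scaling, was 0.31 and 0.32 on the log2 scale in the libraries of B16-F1, -0.14 and -0.15 in those of B16-F1R2, and -0.13 and -0.20 in those of B16-F1R2L.

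The other genes of chromosome 17 had the same direction. The 521 tested genes there that are not members had a median log2 fold change of -0.34 in B16-F1R2 against B16-F1, with 59.5% called lower, and of -0.34 with 58.7% called lower in B16-F1R2L. Between the metastatic lines their median was 0.02 and that of the 6 members -0.24, which was also the median of the members elsewhere. Chromosome 14 lay highest, with a median of 0.34 over its 362 other tested genes in B16-F1R2, and it holds Rps24, at 0.54, and Rpl15, at -0.08. Rpl7l1, a relative of Rpl7 outside the symbol rule that works in ribosome assembly and lies on chromosome 17, had 79.1 and 79.9 FPKM in B16-F1, whereas B16-F1R2 had 64 and 60.1 and B16-F1R2L had 55.1 and 51.4. Its log2 fold change was -0.36 (limma adjusted p = 0.0018) in B16-F1R2 and -0.58 in B16-F1R2L, beside medians of -0.32 and -0.59 for the members on that chromosome.

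**Figure D4:**
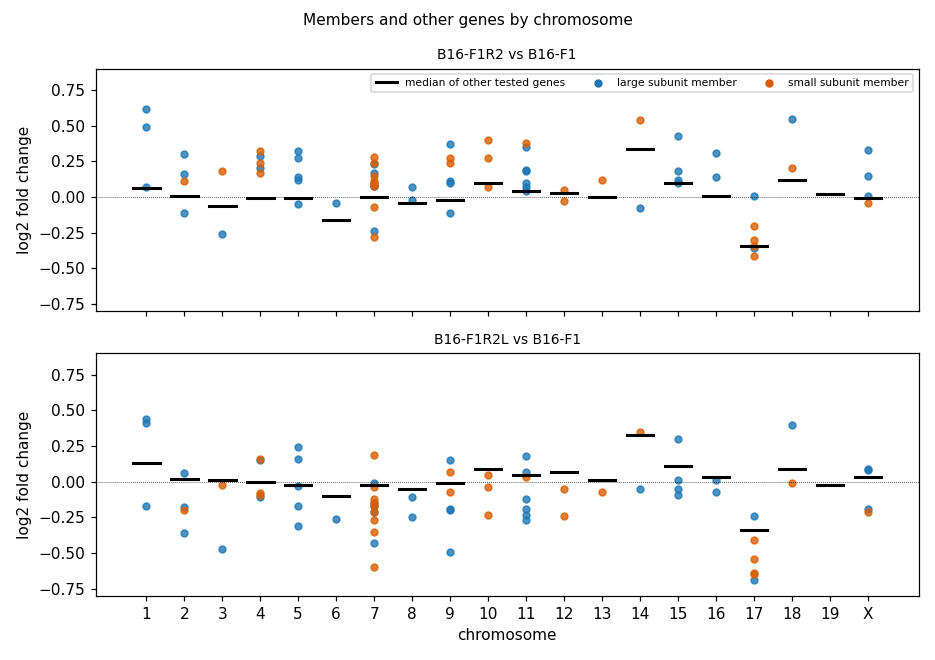
log2 fold change (vertical axis) of each member with a position, by chromosome (horizontal axis), in B16-F1R2 and B16-F1R2L against B16-F1, with black bars for the median of the other tested genes of the chromosome. On chromosome 17 the bar is at -0.34 in both panels and the 6 members have medians of -0.32 and -0.59, and on chromosome 14 the bar is at 0.34 and 0.33.

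To see whether this extended to smaller regions, each member was set beside the median of its nearest tested genes, up to 10 on each side, that are not ribosomal protein members. Rpl37 had 16 and Rps20 13 of these neighbours, and the other 73 placed members had 20. For Rpl28 this median was -0.41 in B16-F1R2, and for Rps9 (chr7:3655595-3658503), in the same stretch and uncalled at -0.07, it was -0.39. In B16-F1R2L against B16-F1, Rps9 was lower, at -0.35, beside neighbours at -0.48. The neighbours of all 6 fallen members had a negative median in B16-F1R2. Of the 23 higher members, 16 had neighbours with a positive and 6 with a negative median. Rpl7, Rps24, Rpl31 and Rpl37 had neighbours at 0.29, 0.25, 0.32 and 0.33, while Rpl17 rose beside neighbours at -0.07. Of the 22 members lower in B16-F1R2L, 6 lay on chromosome 17, 3 in the first 14 Mb of chromosome 7 and 13 elsewhere.

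Across the 75 members with a position, the correlation of the member's change with its neighbours' median was 0.68 (Pearson) and 0.55 (Spearman) in B16-F1R2 against B16-F1, and 0.70 and 0.66 in B16-F1R2L against B16-F1. Without chromosome 17 (69 members) it was 0.58 and 0.43, and 0.62 and 0.57. Between the metastatic lines it was 0.08 and 0.12. Member and neighbours were measured in the same libraries, members close to each other share neighbours, and the values describe these genes without a test. The number of gene copies in these lines was not measured, and its part in the pattern was not tested.

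**Figure D5:**
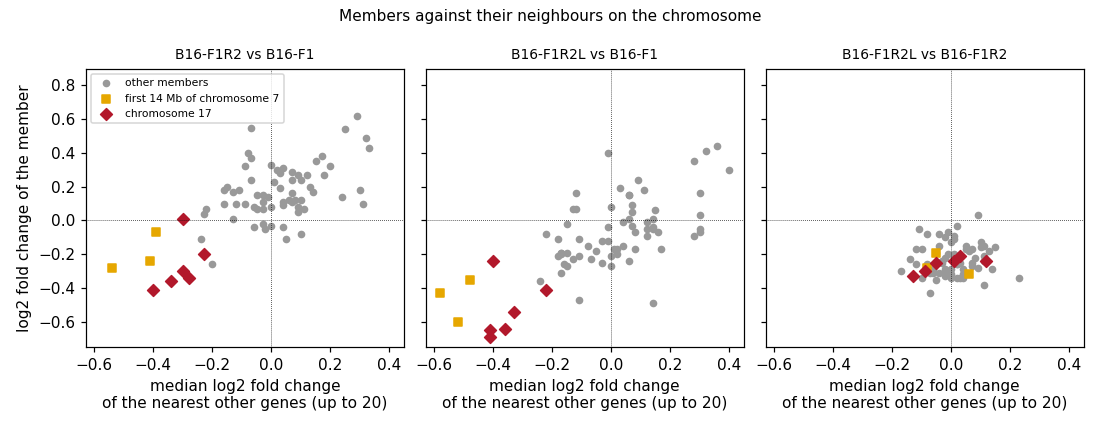
log2 fold change of each of 75 members (vertical axis) against the median log2 fold change of its nearest other tested genes, up to 20 (horizontal axis) in the 3 comparisons, with chromosome 17 as red diamonds and the first 14 Mb of chromosome 7 as yellow squares. The points follow a rising band in the first 2 panels (Pearson 0.68 and 0.70) and none in the third (0.08), where they lie around -0.24 at every neighbour median.

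Other properties of the members moved with their changes to differing degrees. Members rich in GC had lower changes, with Spearman correlations across 75 members of -0.50, -0.60 and -0.38 in the 3 comparisons as ordered above. More abundant members also had lower changes, with -0.25, -0.40 and -0.46 across 76. The share of stretches found elsewhere in the genome hardly tracked the change (-0.10, -0.12 and -0.09). Members with an oligopyrimidine tract at the start had median changes of 0.11, -0.17 and -0.24, and those without had 0.12, -0.11 and -0.25. In 28 members the introns or exons hold snoRNA genes, which guide the modification of ribosomal RNA, and these members had medians of 0.12, -0.10 and -0.23, against 0.12, -0.12 and -0.25 for the 47 placed members without. The part of GC content and level in the differences was not tested beyond the corrected counts.

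Among functional groups, the P stalk was called as a whole in B16-F1R2L. It comprises Rplp0, the acidic Rplp1 and Rplp2, and Rpl12 at its base, and docks the translation factors that use GTP. In B16-F1R2 against B16-F1, 0 of these 4 passed the test (limma, also 0 at an unadjusted p under 0.05), with changes from -0.11 to 0.08. That count rested on the processing, since 3 of the 4 were lower with GC content and length corrected (median log2 fold change -0.15) and 1 after quantile normalization (median -0.11). In B16-F1R2L against B16-F1 all 4 were lower, with log2 fold changes of -0.49 for Rplp1, -0.36 for Rpl12, -0.31 for Rplp0 and -0.21 for Rplp2, where 27.1% of all tested genes were lower. Rplp0, often used as a reference gene, had 1864 and 1876 FPKM in the libraries of B16-F1, 1870 and 1745 in those of B16-F1R2, and 1554 and 1468 in those of B16-F1R2L. It overlapped between the first 2 lines and was set below them in the last. All 4 remained lower under each of the 4 other scalings tried, but without library 1 of B16-F1 1 of the 4 passed the test, without library 2 of B16-F1 0 did (2 unadjusted), and without library 2 of B16-F1R2L 2 did.

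Rpl5 and Rpl11, which bind 5S ribosomal RNA together, are given side by side, and the difference between their changes was not tested. Rpl5 had 406 FPKM in each B16-F1 library, 501 and 477 in those of B16-F1R2, and 469 and 488 in those of B16-F1R2L, higher in both metastatic lines by 0.27 (limma adjusted p = 0.0036) and 0.24 (limma adjusted p = 0.0059). Rpl11 had 1377 and 1442, 1737 and 1514, and 1342 and 1263 FPKM. Its change was 0.20 in B16-F1R2 (limma adjusted p = 0.070) and -0.11 in B16-F1R2L (limma adjusted p = 0.26), and it was lower in the lung than in the lymph node line, at -0.32 (limma adjusted p = 0.037). Rps6 had 560 and 554 FPKM in B16-F1, whereas B16-F1R2 had 719 and 671 and B16-F1R2L had 621 and 627, higher in both metastatic lines by 0.32 and 0.16. Rpl3, a large subunit protein, passed the test in none of the comparisons, with changes of 0.12, 0.01 and -0.11.

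Of the X-linked members, Rpl36a was higher in B16-F1R2 by 0.33, and Rps4x and Rpl10 fell in B16-F1R2L relative to B16-F1, at -0.21 and -0.19, whereas Rpl39 had 0.15 and 0.09 without passing. The ribosomal proteins that are made as fusions with ubiquitin or a ubiquitin-like protein also differed. Rps27a was higher in B16-F1R2 by 0.38, with 1548 and 1509, 2149 and 1839, and 1629 and 1505 FPKM. Fau, which lies outside the symbol rule, stood lower in B16-F1R2L relative to B16-F1, at -0.30 (limma adjusted p = 0.014), and relative to B16-F1R2, at -0.27 (limma adjusted p = 0.047). Rpsa, the laminin receptor precursor, stood lower in B16-F1R2L relative to B16-F1, at -0.23, and Rpl36al, a paralogue of Rpl36a, was higher in B16-F1R2 by 0.30, near the 0.33 of Rpl36a. Rps27l and Rps27 shared neither level nor call in B16-F1R2, where Rps27l was higher by 0.27 (limma adjusted p = 0.014) and Rps27 had 0.18 (limma adjusted p = 0.13), and the difference of these changes was not tested. With GC content and transcript length corrected for, the change of Rps27l was 0.00.

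Genes outside the cytosolic ribosome give the setting. Of 76 tested mitochondrial ribosomal proteins, which serve translation inside mitochondria, 31 were higher and 8 lower in B16-F1R2 against B16-F1 (median 0.15), 23 were higher and 21 lower in B16-F1R2L against B16-F1 (median -0.04), and 0 were higher and 23 lower between the metastatic lines (median -0.19). The shares called in B16-F1R2L against B16-F1, 30.3% and 27.6%, were near the 29.5% and 27.1% of all tested genes, whereas in B16-F1R2 they were 40.8% and 10.5%, against 28.2% and 27.2%, and between the metastatic lines 0% and 30.3%, against 12.1% and 10.5%. Of 39 tested ribosome assembly factors, 33 were higher and 1 lower in B16-F1R2 (median 0.41), 13 higher and 4 lower in B16-F1R2L (median 0.06), and 0 higher and 31 lower between the metastatic lines (median -0.34). In B16-F1R2, 84.6% of these factors were higher, against 28.2% of all tested genes, and between the metastatic lines 79.5% were lower, against 10.5%. Without library 1 or 2 of B16-F1, the counts for B16-F1R2L against B16-F1 were 10 and 2 or 8 and 2. The 31 lower became 10 without library 1 of B16-F1R2, 20 without library 2, 14 without library 2 of B16-F1R2L, and 19 with the libraries rescaled to the same sum. Gnl3, a nucleolar GTPase, had 40.1 and 38.1 FPKM in the libraries of B16-F1, 82.8 and 82.6 in those of B16-F1R2, and 61.1 in each library of B16-F1R2L. Its level in the first 2 lines differed by 1.08 on the log2 scale (limma adjusted p = 7.6e-06), more than that of any member. Nop58, a core protein of the snoRNA particles, rose by 0.94 and Npm1, a nucleolar chaperone, by 0.78. Ncl, the nucleolar protein nucleolin, rose by 0.27. Bysl, needed for the small subunit and placed on chromosome 17, was the factor that was lower, at -0.46. Nop2, Rrp9 and Nop16 had the largest differences between the metastatic lines, at -0.62, -0.56 and -0.54.

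Translation factors were called in both directions. Of 33 tested, 17 were higher and 3 lower in B16-F1R2, 11 higher and 11 lower in B16-F1R2L, and 1 higher and 12 lower between the metastatic lines. As shares this was 51.5% and 9.09%, 33.3% and 33.3%, and 3.03% and 36.4%, where the tested genes had 28.2% and 27.2%, 29.5% and 27.1%, and 12.1% and 10.5%. The counts for B16-F1R2L against B16-F1 became 18 higher and 5 lower under quantile normalization and 15 and 7 with the libraries rescaled to the same sum. They were 6 and 5 without library 1 of B16-F1, 5 and 6 without library 2 of B16-F1, and 8 and 6 without library 2 of B16-F1R2L, and for B16-F1R2 they were 12 and 1 or 11 and 1 without library 1 or 2 of B16-F1 and 18 and 1 without library 2 of B16-F1R2. The 12 lower between the metastatic lines became 0 without library 1 of B16-F1R2 (limma, 14 at an unadjusted p under 0.05), 1 without library 2 of B16-F1R2L, and 7 without either B16-F1 library. Eif5b, which joins the subunits, was higher in B16-F1R2 by 0.74, and Eif4a1, the helicase that unwinds the mRNA leader, by 0.54. Eef1g, of the complex that recharges elongation factor Eef1a1, had 650 and 656 FPKM in the libraries of B16-F1, 435 and 415 in those of B16-F1R2, and 395 and 382 in those of B16-F1R2L. It fell by 0.62 in B16-F1R2 and by 0.75 in B16-F1R2L, more than any ribosomal protein member. Eef1a1 was lower in B16-F1R2L, at -0.34, and Eef2, which also belongs to the mRNAs with an oligopyrimidine start, passed in none of the comparisons (-0.07, -0.10 and -0.02). Tpt1 had 0.17, -0.02 and -0.19 without passing, and Pabpc1 was higher in both metastatic lines by 0.27.

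Among 14 tested subunits and factors of RNA polymerase I, which makes the ribosomal RNA precursor, 3 were higher and 2 lower in B16-F1R2, 1 higher and 5 lower in B16-F1R2L, and 0 higher and 6 lower between the metastatic lines. As shares this was 21.4% and 14.3%, 7.14% and 35.7%, and 0% and 42.9%, beside the same shares of all tested genes as for the translation factors. Myc, a transcription factor of ribosome genes, had 17.3 and 18 FPKM in B16-F1, whereas B16-F1R2 had 34.7 and 42.1 and B16-F1R2L had 40.9 and 36. It was higher by 1.11 in B16-F1R2 and by 1.12 in B16-F1R2L (limma adjusted p = 2.4e-04 in each) and overlapped between the metastatic lines, in which the members differed by a median of -0.24. Larp1, which binds the oligopyrimidine start, was higher in B16-F1R2L by 0.22 (limma adjusted p = 0.016) and had 0.14 in B16-F1R2 (limma adjusted p = 0.074). Among all 13 tested regulators of ribosomal protein mRNA, 5 were higher and 2 lower in the lymph node line, 7 and 2 in the lung line, and 3 and 2 between the metastatic lines, which is 38.5% and 15.4%, 53.8% and 15.4%, and 23.1% and 15.4%. Of these, Max was lower in B16-F1R2 and B16-F1R2L relative to B16-F1, at -0.35 and -0.54, and Mxi1 was higher, by 0.37 and 0.74.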

How the data were processed

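Polyadenylated RNA of 6 libraries was read from a single end, 50 bases per read. The authors aligned the reads to mm9 with TopHat2 2.0.10 and Bowtie 1.0.0, with 2 mismatches and up to 20 positions allowed per read, and deposited 1 table of FPKM values. The submitters' processing notes name Cuffnorm, and its version and gene annotation are not given in the sources used here. Up to 20 positions per read can divide the reads of a gene and its pseudogenes.

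From the FPKM, log2(FPKM + 0.1) was computed for the 11379 genes that reached 1 FPKM in 2 libraries or more. On this scale the change of low genes is understated. Lines were compared over all 6 libraries with limma 3.58.1 in R 4.3.3 (eBayes with a trend, Benjamini-Hochberg adjustment, threshold 0.05), without a block for the replicate number. Positions, GC content, length and shared 50-base stretches came from NCBIM37, matched by symbol for 75 members, and snoRNA genes from its annotation. Transcript starts came from RefSeq on GRCm38.p6. The steps were tested on simulated data. Python 3.11.15 with pandas 2.3.3 served for the tables.

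The members and lists were chosen with earlier results of these data known. Named genes were the 5 members with the largest called change in each direction, the 3 highest and 3 lowest, the P stalk, Rpl5, Rpl11, ubiquitin fusions, X-linked members, paralogues, Rps6, Rpl3, Rps27, ribosomal proteins outside the symbol rule, and up to 3 per direction of the other lists with Eef1a1, Eef2, Tpt1, Pabpc1, Ncl, Npm1, Myc and Larp1. Alternatives were other pseudocounts, filters, scalings and models, a replicate block, a correction for GC content and length, members with fewer shared stretches, and each library left out. Results on certain genes are not reported here.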

Additional observations from a re-analysis of the deposited data

How the results depend on the processing

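For B16-F1R2 against B16-F1 (23 higher, 6 lower), no filter on low values gave 3 lower, rescaling to the same sum 39 higher, the same without the members 42 higher, quantile normalization 10 lower, and the GC and length correction 18 lower, with a median of 0.01 and a large minus small subunit difference of 0.07. Requiring a log2 fold change of 0.5 left 3 higher and 0 lower (limma, also 0 at an unadjusted p under 0.05, since no change reached -0.5), and members with under 50% shared stretches gave 14 higher and 1 lower with a subunit difference of 0.05. Leaving out a library gave 14 to 39 higher, 0 to 7 lower, and medians of 0.06 to 0.21. For B16-F1R2L against B16-F1 (10 and 22), no filter gave 14 lower, the same sum 20 higher (median -0.01), the same without the members 18 higher (median -0.02), quantile normalization 19 higher (median 0.00, subunit difference 0.02), and GC and length 37 lower (subunit difference 0.05). A minimum of 0.5 left 0 higher (also 0 unadjusted) and 5 lower, and members with fewer shared stretches gave 6 higher and 9 lower (subunit difference 0.12). Leaving out a library gave 5 to 11 higher, 7 to 29 lower and subunit differences of -0.02 to 0.00. For B16-F1R2L against B16-F1R2 (0 and 30), no filter gave 5 lower, eBayes without a trend 10, the 4 libraries alone 2, GC and length 52 (median -0.15, subunit difference 0.00), quantile normalization 1 higher and 10 lower (median -0.08, subunit difference 0.00), the same sum a median of -0.13, the same without the members -0.17, a minimum of 0.5 left 0 lower (also 0 unadjusted), and members with fewer shared stretches 13 (subunit difference 0.07). Leaving out a library gave 0 to 48 lower and medians of -0.32 to -0.17. The cause of these shifts was not tested, apart from the fewer genes or libraries that some alternatives use.

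Whether libraries with the same replicate number were handled together is not known here. Their deviations from the line mean correlated at 0.0519, -0.102 and 0.0789 over the tested genes, which does not decide it. Among the 76 members, library 1 was above library 2 in 37 for B16-F1, 74 for B16-F1R2 and 61 for B16-F1R2L. The replicate block gave 26 higher and 7 lower, 9 and 29, and 0 and 39 in the 3 comparisons. The share of summed FPKM was 19.1% in B16-F1 over the genes that passed the filter, and without genes of small RNAs 20.1%, 21.3% and 19.3% in B16-F1, B16-F1R2 and B16-F1R2L. Among named genes, the GC and length correction turned Rpl10 to -0.14 and Rps27l to 0.00 in B16-F1R2 against B16-F1, and quantile normalization turned Rps27 to 0.18 and Tpt1 to 0.16 in B16-F1R2L against B16-F1 and Eef2 to 0.13 between the metastatic lines. The chromosome 17 members kept a negative median in each comparison under the other pseudocounts, filters, scalings and models, the GC and length correction, the replicate block and each left-out library.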
